A study of Mus musculus with 30 samples.

Results

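Gene expression in the joint of a mouse with collagen-induced arthritis (CIA) was set against that in the joint of a healthy mouse, gene by gene. The joint libraries were taken by their organ label and their sample title, and they made up 3 of the 30 libraries and 869 of the 8282 cell barcodes of the series. The libraries were made by Seq-Well, in which cells and barcoded beads share small wells, from male DBA1/J mice, a strain that is prone to this arthritis, which were young adults by the study's methods. The healthy joint came from mouse H3, with an arthritis score of 0, which had been given buffer alone. Both CIA libraries came from mouse S1, with a score of 8 over its limbs, after an injection of 100 µg bovine collagen II in complete Freund's adjuvant and a boost on day 20 in incomplete Freund's adjuvant. Whole knee joints had been frozen, thawed, minced and digested with collagenase and DNase before loading, and the adjuvant went into the arthritic mouse alone, so an effect of the adjuvant and of the arthritis cannot be told apart.

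The healthy library held 193 barcodes, CIA replicate 1 held 606 and CIA replicate 2 held 70. The deposited values are sums of unique molecular identifiers over a barcode and its nearest neighbours, called units below, and levels are given as units per 1000000 units of a library (UPM). The totals were 1966588, 7881428 and 591444 units. The libraries also differed in how many genes they list above 0, with 7607 in the healthy library, 16460 in CIA replicate 1 and 3218 in CIA replicate 2. CIA replicate 2 stood apart, since its 70 barcodes held only 20 distinct profiles and its lowest level above 0 was 15.2 UPM, against 0.127 UPM in CIA replicate 1. It carries the title suffix CIA while the other joint libraries carry 2CIA, and the labels do not explain the suffix. With 1 mouse per state there was no test, and the gap between the CIA libraries, which share a mouse, was the only measure of spread. That gap does not hold the spread between mice.

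A knee joint holds synovial fibroblasts and macrophages, cartilage and, beside them, bone with its marrow. In arthritis of this kind the synovium is known to thicken, neutrophils and monocytes enter it, and fibroblasts release metalloproteases that break down cartilage and bone. Other genes of the same cells belong to a resting tissue, such as those of the loose connective matrix and of resident macrophages that present antigen through major histocompatibility complex (MHC) class II.

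The libraries were first checked against cell type markers. The summed level of 10 fibroblast markers was 16622 UPM in the healthy joint, 24092 UPM in CIA replicate 1 and 14098 UPM in CIA replicate 2, and Prg4, which encodes the lubricin of the synovial lining and cartilage surface, stood at 1733, 721 and 1757 UPM. Neutrophil markers summed to 61774, 133127 and 86353 UPM. The defining cartilage genes Col2a1 and Acan were listed at 0 in the healthy library and in CIA replicate 2, and stood at 1175 and 104 UPM in CIA replicate 1. Skeletal muscle markers summed to 221, 83.4 and 64.2 UPM and keratinocyte markers to 156, 249 and 0 UPM. Low levels of muscle markers were thus present in all 3 libraries, and skin markers in the healthy library and CIA replicate 1. Elane, a gene of early myeloid cells of the marrow, was near level at 260, 264 and 358 UPM. These makeups differed between the libraries, and their part in the results was not tested.

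A gene was counted as higher or lower when it differed from the healthy joint by 2-fold or more the same way in both CIA libraries, on the log2(UPM + 10) scale, which understates the change of low genes. Of 11421 genes with 50 or more units over the 3 libraries, 243 were higher (2.13%) and 1275 were lower (11.2%). The lower count rested on CIA replicate 2, since 1210 of the 1275 were listed at 0 there, and 149 of the 243 higher genes were listed at 0 in the healthy joint. Among the 3000 genes above 0 in all 3 libraries, 94 were higher (3.13%) and 65 were lower (2.17%), and among 2239 genes with 50 or more units in each library 61 were higher (2.72%) and 27 were lower (1.21%). Close to the limit, Manf, whose smaller log2 difference was 1.00, was counted as higher and Uchl3, with 0.99, was not. Over those 3000 genes the median log2 difference from the healthy joint was -0.29 in CIA replicate 1 and 0.46 in CIA replicate 2, and the median gap between the CIA libraries was 0.92. Scaling by a trimmed mean moved these medians to 0.24 and 0.01, and single values are best read against them. The CIA libraries moved in opposite directions by 2-fold each for 158 of the 3000 genes. CIA replicate 1 alone had 2904 genes higher and 2000 lower, and CIA replicate 2 alone had 992 higher and 4644 lower.

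**Figure D1:**
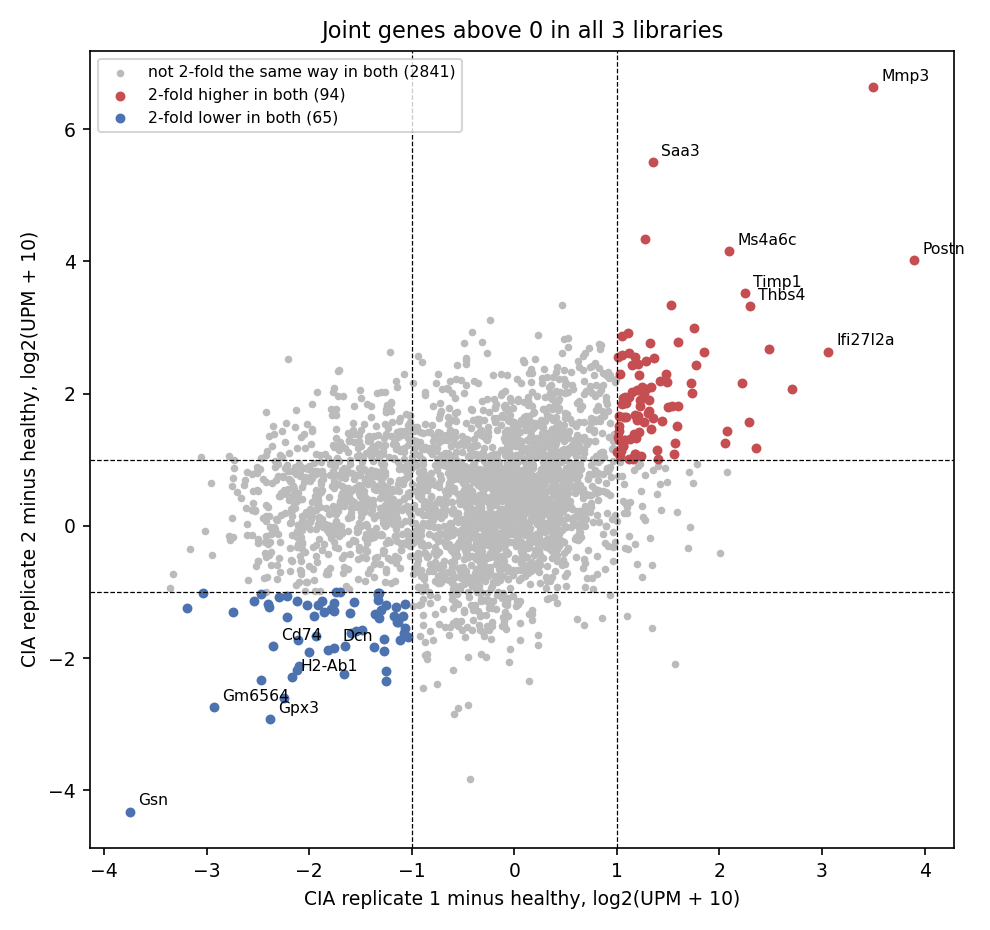
Log2 difference from the healthy joint in CIA replicate 1 (x axis) and CIA replicate 2 (y axis) for the 3000 genes above 0 in all 3 libraries, with dashed lines at 2-fold. The 94 genes in the upper right corner are led by Mmp3 and Postn, the 65 in the lower left by Gsn, and the grey genes did not pass 2-fold the same way in both.

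The 12 leading higher genes were Spp1, Col12a1, Cthrc1, Postn, Mmp13, Mmp3, Ifi27l2a, Enpp1, Thbs4, Timp1, Ms4a6c and Col5a3. Mmp3, a metalloprotease made by stimulated synovial fibroblasts that cuts proteoglycans and activates other metalloproteases, stood at 54.9 UPM in the healthy joint, 724 UPM in CIA replicate 1 and 6450 UPM in CIA replicate 2. Its log2 differences were 3.50 and 6.64, so both libraries were far above the healthy one while they differed from each other by 3.14. Mmp13, the collagenase that cleaves cartilage collagen, was listed at 0 in the healthy joint and reached 120 and 309 UPM. Timp1, an inhibitor of metalloproteases, stood at 71.7 UPM in the healthy joint and at 378 and 923 UPM in the CIA libraries, with differences of 2.25 and 3.51. Protease and inhibitor were thus higher together.

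Of 15 metalloproteases and inhibitors, all of which had enough units, 3 were higher in both CIA libraries (Mmp3, Mmp13 and Timp1) and 2 were lower (Adamts2 and Adamts5), against backgrounds of 2.13% and 11.2% of all genes. Adamts5, an aggrecan-cleaving protease, stood at 168 UPM in the healthy joint, 54.3 UPM in CIA replicate 1 and was listed at 0 in CIA replicate 2. Adamts2, which trims procollagen, stood at 103, 41.0 and 0 UPM. Both lower calls therefore lean on a library with few listed genes, and under trimmed-mean scaling the list had 3 higher and 0 lower. The gelatinase Mmp2, at 239, 267 and 125 UPM, and Mmp14, a membrane-bound metalloprotease, at 107, 152 and 184 UPM, did not pass 2-fold in either library. Mmp8, the neutrophil collagenase, was higher in CIA replicate 1 alone, at 81.9, 292 and 81.2 UPM.

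The promoters of Mmp13 and Mmp3 are shown because both genes lie on chromosome 9, moved together, and hold the motif TGACTCA, to which AP-1 (Fos and Jun proteins) is known to bind. Each sequence runs from 250 bases before to 50 bases after the start site in RefSeq (GRCm38.p6), and the capitals mark TGACTCA or, on the other strand, TGAGTCA.
Mmp13, chr9:7272264-7272563, plus strand: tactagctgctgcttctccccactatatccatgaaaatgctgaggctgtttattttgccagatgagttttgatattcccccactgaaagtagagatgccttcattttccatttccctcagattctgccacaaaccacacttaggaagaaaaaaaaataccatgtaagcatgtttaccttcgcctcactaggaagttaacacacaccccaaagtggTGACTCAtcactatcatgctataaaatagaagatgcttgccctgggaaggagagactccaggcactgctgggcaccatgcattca
Mmp3, chr9:7445572-7445871, plus strand: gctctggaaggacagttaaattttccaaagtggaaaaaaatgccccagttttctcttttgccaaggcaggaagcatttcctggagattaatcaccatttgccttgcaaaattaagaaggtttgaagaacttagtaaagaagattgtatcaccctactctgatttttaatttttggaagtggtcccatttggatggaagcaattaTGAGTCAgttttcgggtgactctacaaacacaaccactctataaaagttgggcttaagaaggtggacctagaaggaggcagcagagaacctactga
The motif began 35 bases before the start site in Mmp13 and 46 bases before it in Mmp3. A promoter was found for 9 of the 12 leading higher genes, and these 2 held the motif. It was in 1709 of all 32851 promoters of the table, which is 5.20%, on either strand. Among genes with enough units the share was 4.77%, among the higher genes it was 12 of 177 (6.78%), and among the lower genes it was 23 of 541 (4.25%). Fos and Jun transcripts themselves stood at 2257 and 1759 UPM in the healthy joint, at 1565 and 1170 UPM in CIA replicate 1, and at 1160 and 889 UPM in CIA replicate 2. The match of letters is a description of these windows and no evidence of binding.

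Postn, Cthrc1, Col12a1, Thbs4, Col5a3 and Enpp1 also belonged to the 12. Postn encodes periostin, a protein laid down in remodelling connective tissue, and its level was 18.3 UPM in the healthy joint, 413 UPM in CIA replicate 1 and 450 UPM in CIA replicate 2. The log2 differences of 3.90 and 4.02 lay 0.12 apart, which made Postn the leading higher gene with the smallest gap. Cthrc1, a secreted protein of activated fibroblasts, and Col12a1, a collagen that sits on fibril surfaces, were listed at 0 in the healthy joint. Cthrc1 reached 349 and 154 UPM and Col12a1 reached 195 and 162 UPM in the CIA libraries. Thbs4, a thrombospondin of tendon and connective tissue, stood at 34.6 UPM in the healthy joint and at 209 and 435 UPM in the CIA libraries. Col5a3 stood at 17.8, 172 and 107 UPM. Enpp1, which makes pyrophosphate outside the cell and so restrains mineral, stood at 17.8, 145 and 167 UPM. For each of these genes both CIA values lay above the healthy value by more than their own gap on the log2 scale.

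**Figure D2:**
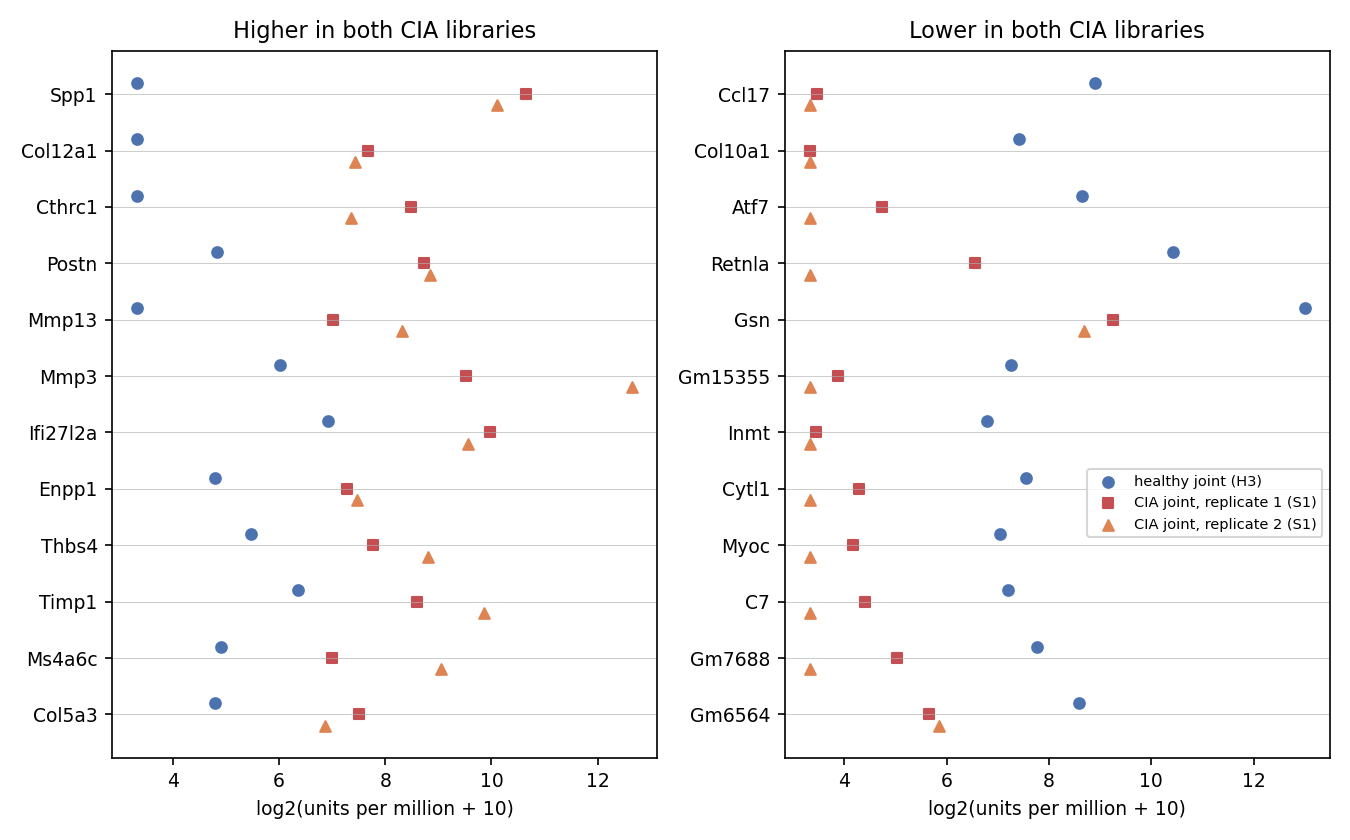
Levels of the 12 genes furthest above (left) and furthest below (right) the healthy joint by the smaller of the 2 CIA differences, as log2(UPM + 10) in each of the 3 libraries. A gene listed at 0 sits at the far left, as in the healthy library for Spp1, Col12a1, Cthrc1 and Mmp13, and in CIA replicate 2 for 10 of the 12 lower genes.

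Among 15 fibrillar and associated collagens 3 were higher in both CIA libraries (Col1a1, Col5a3 and Col12a1) and 0 were lower, against 2.13% and 11.2% of all genes. Col1a1, the main chain of type I collagen, stood at 1054 UPM in the healthy joint, 5437 UPM in CIA replicate 1 and 2404 UPM in CIA replicate 2. The differences were 2.36 and 1.18, but 2.94 and 0.69 under trimmed-mean scaling, where Col1a1 no longer reached 2-fold in CIA replicate 2. Its partner chain Col1a2 stood at 2401, 7779 and 1895 UPM, above the healthy level in CIA replicate 1 and below it in CIA replicate 2. Col3a1 stood at 2377, 6076 and 4269 UPM. The 6 collagens above 0 in all 3 libraries had median differences of 1.91 and 0.83, against -0.29 and 0.46 over all 3000 such genes. Col6a1, Col6a2 and Col6a3 were above the healthy level by 2-fold in CIA replicate 1 and listed at 0 in CIA replicate 2.

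The small proteoglycans and other matrix genes split in both directions. Of 23 members, 4 were higher (Lum, Postn, Thbs4 and Lox) and 5 were lower (Dcn, Tnxb, Fbln1, Fbln2 and Loxl1), against 2.13% and 11.2% of all genes. Of the 14 above 0 in all 3 libraries, 4 were higher and 2 were lower (Dcn and Fbln2), against 3.13% and 2.17%. Lumican and decorin are sister proteoglycans that coat collagen fibrils, and they parted. Lum stood at 540 UPM in the healthy joint and at 1246 and 1378 UPM in the CIA libraries. Dcn stood at 7887 UPM in the healthy joint and at 2325 and 2193 UPM in the CIA libraries, with differences of -1.76 and -1.84. Fbln2, an elastic-fibre protein, stood at 367, 109 and 69.3 UPM. Under trimmed-mean scaling the list kept 2 higher (Postn and Thbs4) and 3 lower genes (Dcn, Tnxb and Fbln2), and Lum (1.77 and 0.84) and Lox (1.72 and 0.54) no longer reached 2-fold in CIA replicate 2.

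**Figure D3:**
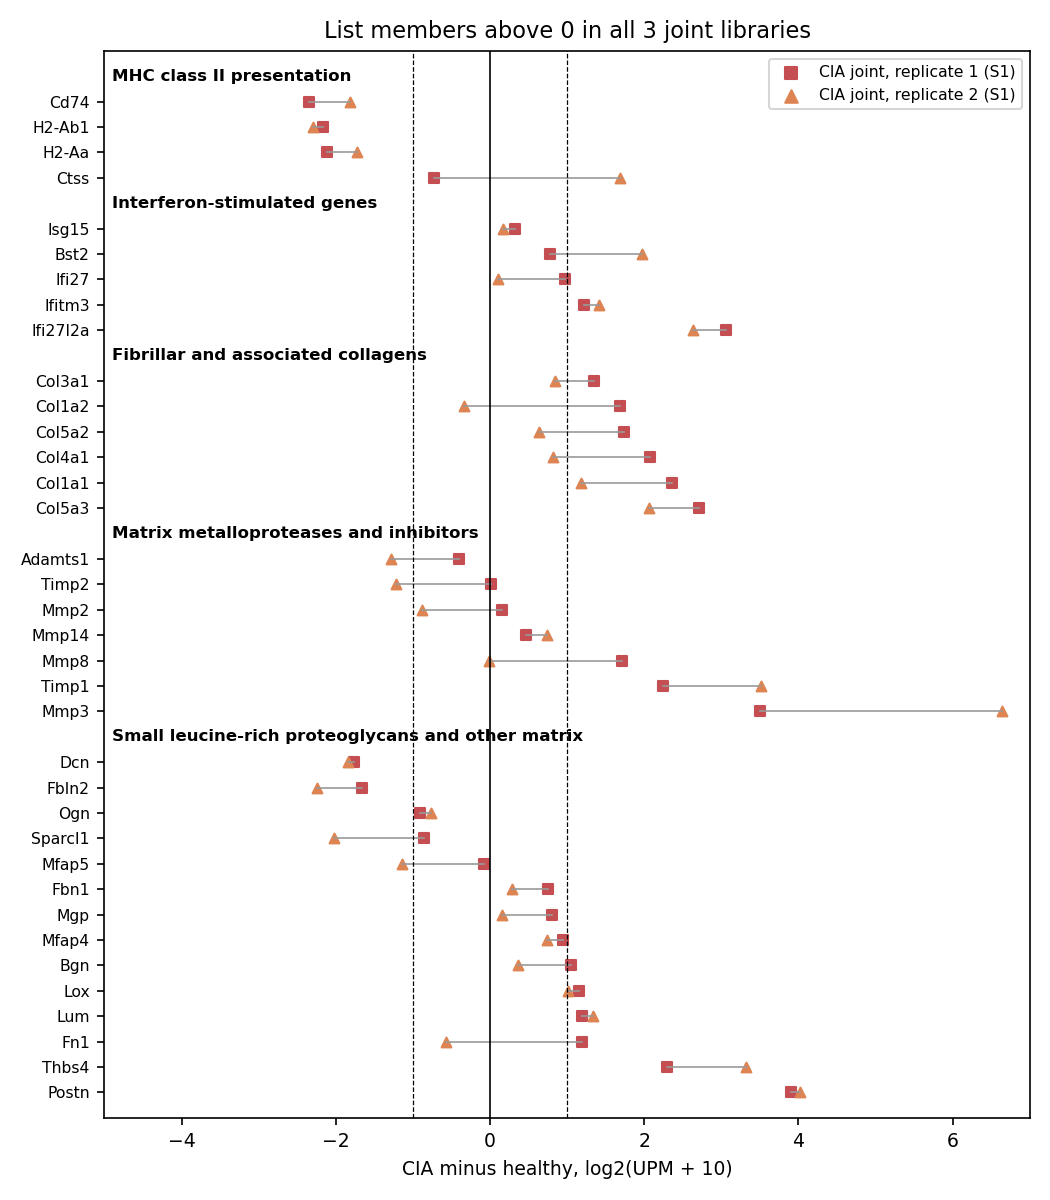
Log2 differences from the healthy joint for list members above 0 in all 3 libraries, with CIA replicate 1 as squares, CIA replicate 2 as triangles and a line for the gap between them. Cd74, H2-Ab1 and H2-Aa lie left of the 2-fold line in both, Mmp3, Timp1, Postn and Thbs4 lie right of it in both, and several collagens pass it in CIA replicate 1 alone.

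Spp1, which encodes osteopontin, a phosphoprotein of bone that activated macrophages also make, led the higher genes by the smaller of the CIA differences. It was listed at 0 in the healthy joint and reached 1594 UPM in CIA replicate 1 and 1092 UPM in CIA replicate 2. The barcodes behind it were not the same kind in the CIA libraries. In CIA replicate 1, 75.7% of the Spp1 units lay in 20 barcodes with a chondrocyte profile, which held only 9 distinct profiles. In CIA replicate 2, 99.8% lay in 39 barcodes with a monocyte profile, which held 14 distinct profiles. The bone gene Ibsp, a sialoprotein of mineralising matrix, stood at 122, 1122 and 0 UPM, so it followed Spp1 in CIA replicate 1 and not in CIA replicate 2. Since these are sums over a joint, fewer cells of a type and less RNA per cell cannot be told apart here or in any of the sums below.

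Of 25 interferon-stimulated genes 4 were higher in both CIA libraries (Ifi27l2a, Ifitm3, Xaf1 and Zbp1) and 0 were lower, against 2.13% and 11.2% of all genes. Ifi27l2a stood at 111 UPM in the healthy joint and at 999 and 741 UPM in the CIA libraries. Ifitm3, which blocks virus entry, stood at 609, 1431 and 1637 UPM, and with trimmed-mean scaling it no longer reached 2-fold in CIA replicate 2 (1.80 and 0.92). Xaf1 and Zbp1 were listed at 0 in the healthy joint and reached 43.1 and 40.7 UPM in CIA replicate 1 and 125 and 49.0 UPM in CIA replicate 2, and with a pseudocount of 50 UPM both missed 2-fold in CIA replicate 1 (0.90 and 0.86). The classical member Isg15 did not differ by 2-fold, at 110, 140 and 125 UPM. Of these 25 genes, 16 were listed at 0 in the healthy joint and 17 in CIA replicate 2.

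Single genes of several other lists were higher in both CIA libraries. Saa3, an acute-phase apolipoprotein that was chosen after its values were seen, stood at 119 UPM in the healthy joint, 319 UPM in CIA replicate 1 and 5816 UPM in CIA replicate 2. Hp, which encodes haptoglobin, stood at 291, 684 and 1630 UPM and was the 1 higher gene of 10 tested for iron and haem handling, against 2.13% of all genes. Of 7 monocyte markers 1 was higher (Ms4a6c, a membrane gene, at 19.8, 118 and 522 UPM) and 1 was lower (Csf1r, the receptor for a growth factor of monocytes and macrophages, at 20.8, 4.06 and 0 UPM), against 2.13% and 11.2%. Csf1r missed 2-fold in CIA replicate 1 under trimmed-mean scaling (-0.94), with a pseudocount of 50 UPM (-0.39), with each distinct profile counted once (-0.36) and with each barcode scaled to the same total (-0.90). Ccr1, a chemokine receptor of myeloid cells, stood at 52.9, 179 and 169 UPM. Ifitm6, Slfn4 and Plac8, also chosen after their values were seen, were higher in both CIA libraries, though Slfn4 missed 2-fold in CIA replicate 2 under trimmed-mean scaling (0.97) and Plac8 missed it in CIA replicate 1 with each distinct profile counted once (0.71). Ifitm6 stood at 270.0, 1356 and 825 UPM. Ncf1 and Ncf4, subunits of the oxidase of phagocytes, stood at 25.4 and 42.7 UPM in the healthy joint, 95.3 and 129 UPM in CIA replicate 1 and 74.4 and 96.4 UPM in CIA replicate 2. Of 18 genes of that oxidase and of redox control these 2 were higher and 1 was lower (Gpx3), against the same shares. Both missed 2-fold in CIA replicate 2 under trimmed-mean scaling, at 0.83 and 0.57.

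The neutrophil markers did not pass 2-fold in both CIA libraries. S100a8, a calcium-binding alarmin that is among the most abundant transcripts of neutrophils, stood at 32212 UPM in the healthy joint, 84868 UPM in CIA replicate 1 and 60084 UPM in CIA replicate 2, with differences of 1.40 and 0.90. S100a9, its partner, stood at 17653, 32728 and 17577 UPM. Of 10 neutrophil markers 0 were called in either direction, and the same held for the 7 alarmin and S100 genes measured, against 2.13% higher and 11.2% lower of all genes, so a count of 0 in lists this short is near the background. The granule genes Camp (5650, 5395 and 3671 UPM), Ngp (4492, 5629 and 3704 UPM) and Ltf, which encodes lactoferrin (883, 1175 and 837 UPM), lay within 2-fold of the healthy level. In each of the 3 granule lists 1 gene was higher in both CIA libraries and 0 were lower, against the same shares of all genes. Among 6 primary granule genes tested it was Ms4a3, a gene of myeloid progenitors, at 43.2, 112 and 211 UPM, which missed 2-fold in CIA replicate 1 with a pseudocount of 50 UPM (0.80) and with each barcode scaled to the same total (0.72). Among 9 secondary granule genes it was Ltb4r1, a leukotriene receptor, at 0, 38.8 and 40.6 UPM, which missed 2-fold in both with a pseudocount of 50 UPM (0.83 and 0.86), and among 25 tertiary granule and mature neutrophil genes it was Wfdc17, which encodes a secreted protein of activated phagocytes, at 444, 1274 and 1576 UPM. The healthy joint was itself rich in neutrophil transcripts.

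Cytokines and chemokines were mixed. Il1b, the interleukin 1 beta gene, stood at 31.5 UPM in the healthy joint and 74.7 UPM in CIA replicate 1 and was listed at 0 in CIA replicate 2. Tnf stood at 46.3, 33.0 and 0 UPM, and Tgfb1 at 72.2, 47.7 and 0 UPM. Apoe stood at 442, 379 and 149 UPM, and Dsc3, a desmosome gene, was listed at 0 in the healthy joint and in CIA replicate 2 and stood at 14.3 UPM in CIA replicate 1. None of the 6 genes that the study treats as regulators, the 5 just named here and Ltf, was higher or lower in both CIA libraries. Il6 stood at 168, 209 and 249 UPM. The chemokine Ccl7 parted, at 374 UPM in the healthy joint, 154 UPM in CIA replicate 1 and 1060 UPM in CIA replicate 2, and Ccl2 did so less, at 575, 419 and 1180 UPM. Cxcl5, which draws neutrophils, stood at 0, 2.92 and 577 UPM. Ccl9, at 12.2, 47.1 and 118 UPM, was higher in both with Ccr1, but missed 2-fold in CIA replicate 1 with a pseudocount of 50 UPM (0.64) and with each barcode scaled to the same total (0.88). Ccl11, at 45.3, 10.2 and 0 UPM, was the member lower in both among 11 CC chemokines and receptors, of which 2 were higher, against 2.13% higher and 11.2% lower of all genes. The lower call rests in part on a level of 0 in CIA replicate 2 and was lost with a pseudocount of 50 UPM (-0.66 and -0.93).

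Gsn was the gene furthest below the healthy joint among those above 0 in all 3 libraries. It encodes gelsolin, a protein that cuts actin filaments and also circulates in plasma, and it stood at 8202 UPM in the healthy joint, 601 UPM in CIA replicate 1 and 401 UPM in CIA replicate 2. The differences of -3.75 and -4.32 lay 0.57 apart. Gpx3, a secreted glutathione peroxidase, stood at 667, 120 and 79.5 UPM, and Cst3, which encodes the cathepsin inhibitor cystatin C, stood at 4390, 2098 and 1505 UPM. Cst3 did not reach 2-fold in CIA replicate 1 under trimmed-mean scaling (-0.48). Ltbp4, which binds latent TGF-beta to the matrix, stood at 253, 73.8 and 64.2 UPM. Clec3b, Apod and Serpinf1, chosen after their values were seen and known from fibroblasts of loose connective tissue, were also lower in both. Clec3b stood at 421, 144 and 135 UPM, Apod at 452, 175 and 166 UPM, and Serpinf1, the gene of a secreted serpin, at 608, 270 and 215 UPM. Under trimmed-mean scaling they did not reach 2-fold in CIA replicate 1 (-0.94, -0.76 and -0.58).

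MHC class II genes were the list with the largest share of lower members among those described here. Of 7 tested members 5 were lower in both CIA libraries (H2-Aa, H2-Ab1, H2-DMa, H2-DMb1 and Cd74), against 11.2% of all genes, and of the 4 above 0 in all 3 libraries 3 were lower, against 2.17%. H2-Ab1, a beta chain that presents peptide, stood at 1016 UPM in the healthy joint, 219 UPM in CIA replicate 1 and 200 UPM in CIA replicate 2. H2-Aa, the alpha chain, stood at 1338, 302 and 399 UPM, and Cd74, the invariant chain that guides class II through the cell, stood at 1781, 341 and 499 UPM. The 2 peptide-loading genes H2-DMa and H2-DMb1 stood at 109 and 114 UPM in the healthy joint, 38.4 and 42.5 UPM in CIA replicate 1 and 0 in CIA replicate 2. H2-Eb1 stood at 31.0, 22.1 and 0 UPM, the protease gene Ctss at 462, 276 and 1506 UPM, and Ciita, the class II activator, was listed at 0 in all 3. The count of 5 fell to 3 under trimmed-mean scaling, and to 1 (H2-Ab1) when each distinct profile was added only once, where Cd74 differed by -1.35 and -0.57 and H2-Aa by -1.20 and -0.55. The macrophage marker total was lower in CIA replicates 1 and 2 as well, at 140 and 84.5 UPM against a healthy value of 327 UPM. Marker by marker, only 1 of 5 tested (Mrc1) was lower in both and 0 were higher, against 11.2% of all genes for lower. Under trimmed-mean scaling 2 of the 5 were lower. The only macrophage marker above 0 in all 3 libraries differed by -1.67 and -0.71, so it missed 2-fold in CIA replicate 2. Of the 7 macrophage markers measured, 3 were listed at 0 in the healthy joint, 0 in CIA replicate 1 and 6 in CIA replicate 2. B cell markers summed to 252, 159 and 157 UPM, with 2 of 3 tested (Cd79a and Cd79b) lower in both, against 11.2% of all genes. Of these, Cd79a missed 2-fold in CIA replicate 1 under trimmed-mean scaling (-0.98) and with a pseudocount of 50 UPM (-0.49). Of the 9 B cell markers, 6 were listed at 0 in the healthy joint, 1 in CIA replicate 1 and 8 in CIA replicate 2. The sum of CIA replicate 2 was thus Ebf1 alone. That gene differed by -0.17 and 0.16 over the joint, and stood at 211, 274 and 145 UPM within barcodes with a fibroblast profile. The part of either marker list in the class II result was not tested.

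Several of the genes furthest below the healthy joint rested on few profiles. Ccl17, a chemokine of dendritic cells and macrophages, stood at 465 UPM in the healthy joint, 1.01 UPM in CIA replicate 1 and 0 in CIA replicate 2, and Atf7, a transcription factor, stood at 393, 16.6 and 0 UPM. In the healthy library 85.5% of the Ccl17 units and 97.9% of the Atf7 units lay in 22 barcodes with a macrophage profile, which held only 3 distinct profiles. Retnla, a secreted protein of alternatively activated macrophages, stood at 1365, 84.4 and 0 UPM. Col10a1, the collagen of hypertrophic cartilage, stood at 161 UPM in the healthy joint and was listed at 0 in both CIA libraries, and 96.8% of its healthy units lay in barcodes with a fibroblast profile. Inmt (100.2, 0.888 and 0 UPM), Cytl1 (178, 9.64 and 0 UPM), Myoc (122, 8.12 and 0 UPM) and C7, a complement component (137, 11.04 and 0 UPM), completed the protein-coding genes among the 12. The other three, Gm15355, Gm7688 and Gm6564, are annotated as pseudogenes, whose reads may be shared with their parent genes, and are uncertain. Gm6564 was the only one above 0 in all 3 libraries, at 373, 40.2 and 47.3 UPM.

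Barcodes were grouped by cell type markers to see where these units lay. The barcode profiles are smoothed sums and a cluster drawn from a single library may be that library rather than a type, so the classes describe each library and no change in a share is read from them. The fibroblast-like class took 55 barcodes of the healthy joint (24 profiles, 28.5%), 119 of CIA replicate 1 (42 profiles, 19.6%) and 20 of CIA replicate 2 (5 profiles, 28.6%). Neutrophil-like barcodes made up 15.5%, 30.2% and 15.7%, and those of CIA replicate 2 were 1 profile. Macrophage-like barcodes made up 11.4%, 3.47% and 0% and monocyte-like barcodes 0%, 3.30% and 55.7%. The monocyte-like share of CIA replicate 2 dropped to 11.4% when each barcode was named from its own markers, with 35.7% then progenitor-like. At a clustering resolution of 0.5 no barcode was macrophage-like, and monocyte-like barcodes made up 11.4%, 6.6% and 55.7%, so the name macrophage-like depends on that choice. Median totals per barcode were 10344, 11202 and 7454 units, and 52 healthy barcodes and 122 of CIA replicate 1 stayed unnamed.

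**Figure D4:**
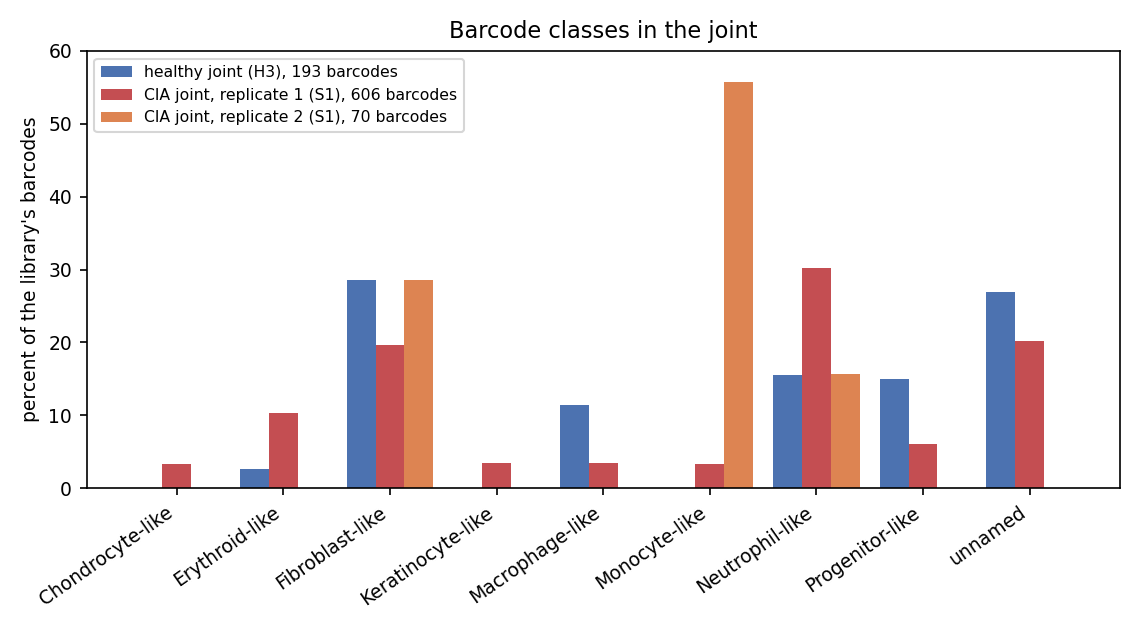
Percent of each joint library's barcodes in each class named from marker genes, with 193, 606 and 70 barcodes in the libraries. Fibroblast-like and neutrophil-like barcodes occur in all 3 libraries, while chondrocyte-like and keratinocyte-like barcodes occur in CIA replicate 1 alone.

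The fibroblast-like barcodes carried most units of some leading higher genes and few of others. They held 90.3% of the Mmp3 units of CIA replicate 1 and 98.4% of those of CIA replicate 2, 90.7% and 86.9% of the Mmp13 units, 86.1% and 92.3% of the Cthrc1 units, and 75.3% and 80.5% of the Postn units. Most units of Thbs4, Timp1, Col12a1 and Col5a3 lay there too in both CIA libraries, with 66.5% or more. Of the Spp1 units they held 12.5% and 0.155%, of the Ifi27l2a units 16.9% and 8.68%, of the Ms4a6c units 1.94% and 0.647%, and of the Enpp1 units 74.1% in CIA replicate 1 but 34.3% in CIA replicate 2. They also held 75.5%, 73.0% and 90.7% of the Gsn units in the healthy library and CIA replicates 1 and 2. Class II units lay elsewhere, with 72.5% of the healthy H2-Ab1 units and 50.7% of those of CIA replicate 1 in macrophage-like barcodes, and all of those of CIA replicate 2 in monocyte-like barcodes. The fibroblast-like barcodes of the healthy joint were all in cluster 1, led by Gsn, Gpx3 and Col10a1, and those of both CIA libraries were all in cluster 10, led by Mmp3, Msmp and Cthrc1, while the markers alone had drawn the clusters.

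Levels were then compared within fibroblast-like barcodes, and the genes named are not markers that formed the classes unless said so. Of 2297 genes above 0 in all 3 libraries, markers included, 217 were higher in both CIA libraries (9.45%) and 163 were lower (7.1%). Mmp3 stood at 147 UPM within the healthy fibroblast-like barcodes, 2959 UPM within those of CIA replicate 1 and 27132 UPM within those of CIA replicate 2. Postn stood at 21.3, 1406 and 1547 UPM, Thbs4 at 28.3, 743 and 1815 UPM, and Timp1 at 202, 1137 and 3615 UPM. Mmp14, which had not passed 2-fold in the whole joint, stood at 156, 499.9 and 600.0 UPM. Saa3 stood at 1.77 UPM within the healthy fibroblast-like barcodes and at 707 and 23907 UPM in the CIA ones, whereas in the healthy library 88.9% of its units lay in neutrophil-like barcodes. Hp stood at 15.9, 267 and 5950 UPM within the fibroblast-like barcodes, and 85.3% of its healthy units lay in neutrophil-like ones.

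Several genes lower in the whole joint were lower within the fibroblast-like barcodes too. Gsn stood at 21581 UPM in the healthy ones and at 1983 and 1554 UPM in the CIA ones, and Gpx3 stood at 1960, 271 and 340 UPM. Sparcl1, a matrix glycoprotein that had missed 2-fold in CIA replicate 1 over the whole joint, stood at 762, 206 and 195 UPM, Fbln2 at 1005, 367 and 296 UPM, and Ltbp4 at 508, 106 and 166 UPM. Stat3, a transducer of interleukin 6 signals, stood at 204, 70.6 and 72.3 UPM and was chosen after its values were seen. The cytokine gene Il6 stood at 259, 112 and 904 UPM within these barcodes, so it lay below the healthy value in CIA replicate 1 and above it in CIA replicate 2, whereas over the whole joint it was above in both. The chemokine genes Ccl2, at 806, 675 and 3362 UPM, and Cxcl5, at 0, 8.03 and 2465 UPM, were far higher in CIA replicate 2 than in CIA replicate 1. Among the markers that had formed the classes, the alarmin S100a8, which is not a fibroblast transcript, stood at 3124, 9075 and 11560 UPM within these barcodes. Retnlg and Lcn2, other neutrophil markers, stood at 119, 564 and 296 UPM and at 35.4, 82.1 and 145 UPM there. Camp lay below the healthy value in both CIA libraries, at 875, 512 and 159 UPM. Ngp (432, 541 and 239 UPM) and S100a9 (1331, 2657 and 1460 UPM) did not pass 2-fold in both. Transcripts of neutrophils were thus present in the fibroblast-like barcodes of each library, and their part in the values above was not tested.

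**Figure D5:**
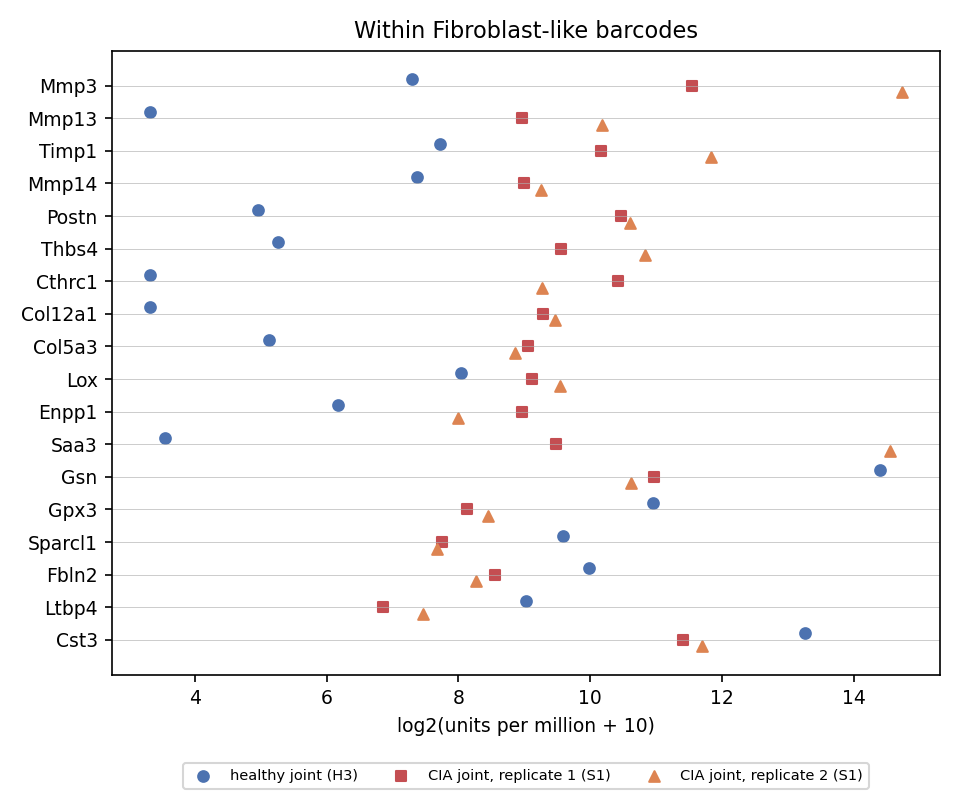
Levels within fibroblast-like barcodes of each joint library, as log2(UPM + 10), for genes not used to form the classes, from 55, 119 and 20 barcodes. Mmp3, Mmp13, Timp1, Mmp14, Postn, Thbs4, Cthrc1, Col12a1, Col5a3, Lox, Enpp1 and Saa3 lie above the healthy value in both CIA libraries, and Gsn, Gpx3, Sparcl1, Fbln2, Ltbp4 and Cst3 lie below it.

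Neutrophil-like barcodes were compared in the same way. Those of the healthy library and of CIA replicate 2 were all in cluster 3, while CIA replicate 1 had 73 there and 76 and 34 in clusters 6 and 12, which held no healthy barcode. Of 1407 genes above 0 in all 3 libraries, markers included, 59 were higher in both CIA libraries (4.19%) and 76 were lower (5.4%), but the CIA replicate 2 value is a single profile. Wfdc17 stood at 133 UPM within the healthy neutrophil-like barcodes and at 2195 and 1245 UPM in the CIA ones. Ifitm3 stood at 275, 1872 and 1423 UPM, Ifitm6 at 1342, 4448 and 2758 UPM, and Ccr1 at 229, 526 and 534 UPM. Saa3 was lower here, at 603, 289 and 267 UPM, the reverse of its direction in the fibroblast-like barcodes. Gsn was again lower, at 1731, 198 and 178 UPM. The fibroblast markers that had formed the classes parted there. Dcn (1206, 204 and 267 UPM), Dpt and Prg4 were lower in both, the last 2 listed at 0 in CIA replicate 2. Col1a1 (37.7, 597 and 356 UPM), Col1a2 (162, 842 and 623 UPM) and Lum (40.6, 186 and 267 UPM) were higher in both. The part of fibroblast transcripts in the Gsn values was not tested.

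The leading genes were last looked up in muscle, taken from the same CIA mouse S1 and from the healthy mouse H6, with 1 library each and the title suffix differing with the state. Of 6 leading higher genes with 50 or more units there, 5 were also 2-fold higher in the CIA muscle, where 21.5% of all genes were. Mmp3 stood at 27.6 UPM in the healthy muscle and 326 UPM in the CIA muscle, and Ifi27l2a stood at 79.8 and 1262 UPM. Of 7 leading lower genes, 1 was 2-fold lower in the CIA muscle, where 39.2% of all genes were, and 5 were 2-fold higher. Gsn stood at 298 UPM in the healthy muscle and 6349 UPM in the CIA muscle, the opposite of the joint. The CIA muscle library held only 54 barcodes (16 distinct profiles), against 421 barcodes (245 distinct profiles) in the healthy muscle. Ifi27l2a was also higher in the CIA lung (140 and 2320 UPM), skin (18.1 and 146 UPM) and spleen (122 and 1685 UPM), and not in the thymus (71.0 and 59.7 UPM). Of 7 leading higher genes with 50 or more units in the skin, 5 were 2-fold higher in the CIA skin. Mmp3 (2640 UPM in the healthy and 2354 UPM in the CIA skin) and Mmp13 (120 and 113 UPM) were not. Of all genes with 50 or more units, 30.8% were 2-fold higher in the CIA lung, 13% in the skin and 24.6% in the spleen. State and title suffix cannot be told apart in these organs.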

How the data were processed

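Units were deposited by the authors as a whole-number signal per gene and barcode, a sum of unique molecular identifiers over nearest-neighbour barcodes (knn smoothing). By the study's methods reads were demultiplexed with bcl2fastq, aligned with STAR to GRCm38 and counted with the Drop-seq tools. The submitters' processing notes also list the builds GRCh38 and mm9 with no role. Since the values are not counts, no count model, interval or detection limit was used, a value of 0 is given as listed at 0, and levels are scaled to 1000000 units per library (UPM).

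Of 23013 gene rows named by Entrez number, 21404 had a symbol in the RefSeq table of GRCm38.p6, and rows without one held 1.57% of the joint units. They stayed in the totals. The table holds 0 columns of unknown sample. The healthy library and CIA replicate 2 shared 2 barcode sequences and the other pairs shared 0. No barcode was removed, and no doublet caller was run on the smoothed sums.

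Log2((UPM + 10)/(healthy UPM + 10)) was taken for each CIA library, for genes with 50 or more units over the 3 libraries. The genes named were the 12 per direction with the largest of the smaller difference that reached 100 UPM in the higher state, members of the gene lists, and 6 regulators the study names. Other genes are marked where they appear. The members, lists and rules were chosen with earlier results of these data known. Distinct profiles were clustered on marker genes with scanpy 1.11.5 and igraph 0.11.9 and named from those markers, and the rest was computed with Python 3.11.15, numpy 2.4.6 and pandas 2.3.3. The calling step was tested on simulated counts without smoothing, for genes well above 0 in the healthy library. That check does not cover smoothed values or genes listed at 0. Other scalings, pseudocounts, filters, folds and profile weights were tried, and each CIA library was left out in turn.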

Additional observations from a re-analysis of the deposited data

Results flagged for a closer look

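Among the 24 leading genes, those with 50 or more units in another organ whose difference there between the CIA mouse S1 and the healthy mouse H6 went against that in the joint by 2-fold or more are given here as log2 differences, CIA minus healthy. These differences were not tested, each rests on 1 library per state, and state and title suffix cannot be told apart in those organs. Spp1, higher in the joint, was lower in the lung at -1.59. Of the genes lower in the joint, Gsn was higher in muscle at 4.37, C7 at 2.81, Retnla at 1.95, and the pseudogenes Gm15355 and Gm7688 at 1.13 each. The CIA muscle library held only 16 distinct profiles. In the thymus Gm15355 was higher at 1.74 and Gm6564 at 1.37.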

How the results depend on the processing

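The counts of 243 higher and 1275 lower genes depended on the setting. Scaling by a trimmed mean of log ratios gave 802 lower genes, so that 27.6% of the calls were higher in place of 16.0%. A pseudocount of 50 UPM gave 40 higher and 154 lower. Asking for 50 units in each library gave 61 and 27, a mean of at least 25 UPM gave 411 lower, and asking for values above 0 in all 3 libraries, which was chosen after seeing the data, gave 94 and 65. A 1.5-fold limit gave 419 and 2273, a 4-fold limit gave 74 and 158, and adding the CIA libraries together gave 2722 and 1953. Leaving out either CIA library gave 992 to 2904 higher and 2000 to 4644 lower genes. The remaining settings stayed within 1.5 times of the main counts, at 222 to 318 higher and 986 to 1824 lower. No paired analysis was possible because the result comes from no test and both CIA libraries are 1 mouse.

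Of 45 genes (the 24 leading genes and the called list members above 0 in all 3 libraries), 32 were called under every scaling, pseudocount and weighting tried. In 450 values 0 reversed their direction, but these genes had been chosen for lying on the same side in both CIA libraries. Another pseudocount, adding the CIA libraries or leaving 1 out could not reverse such a gene, so the count of 0 says little. Of 21 further called genes named in the text, 4 were called under all of those settings and 9 under trimmed-mean scaling. The depth per barcode before smoothing is unknown, which limits what a level of 0 can mean, and 1 mouse per state limits every difference to these animals.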
